A study of Mus musculus with 4 samples.

Results

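The collagen chains and the enzymes that process them were taken as the genes whose platform symbol is a collagen chain (Col, number, a, number), a prolyl 4-hydroxylase alpha subunit (P4ha), a lysyl hydroxylase (Plod), a lysyl oxidase (Lox, Loxl), Serpinh1, Pcolce or Pcolce2. There were 48 of them among the 12393 genes named on the array, 36 chain genes and 12 genes of enzymes and helpers, measured by 77 probe sets. For a gene with several probe sets the brightest on average was taken. Of the 48, 37 lay above the limit for dim genes (a mean signal of 2.18 on the log2 scale, under which the lowest 25% of genes fall) and were tested; the 11 that did not are all chains. Another probe set names Loxl2 together with a second gene and was not used.

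Collagen is the main protein of connective tissue matrix, and it is built by a long chain of gene products. Its chains are made in the endoplasmic reticulum, where prolyl 4-hydroxylases and lysyl hydroxylases modify them and the chaperone encoded by Serpinh1 helps them wind into a triple helix. Proteases cut off the end pieces outside the cell, and lysyl oxidases link the finished molecules to each other. Around muscle fibres, fibrillar collagens form the sheaths, and type IV and type VI collagens lie in and beside the basement membrane that surrounds resting muscle stem cells.

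The cells were C2C12, an established mouse myoblast line, grown in medium with 20% fetal calf serum and then arrested in G0, a reversible halt in which cells do not divide, during 48 hours in methyl cellulose, a semi-solid medium in which they cannot attach. The treatment label of the control group reads only control and does not say whether a vehicle was added. The other group received purified Wnt3A, a secreted ligand of the β-catenin pathway, at 50 ng/ml. Each group had 2 arrays, called biological replicates in the labels; no label says that the cultures were started apart, so p-values measure the spread between these arrays, which may be technical. C2C12 is a single line in which all cells were suspended, and no attached or dividing cells are in the series. The series title places the comparison in a search for β-catenin networks of quiescent myogenic cells.

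Signals are log2 values, a difference is Wnt3A minus control, and errors are SD with n = 2 arrays a group; the number of arrays limits the precision. Where 4 signals are listed together they are control replicates 1 and 2 and then Wnt3A replicates 1 and 2. Median signals were 4.15 to 4.22, and the arrays correlated at 0.936 to 0.978 over the tested genes. The difference between 3' and 5' probe sets of Gapdh, a sign of RNA integrity, was 0.0918 to 0.313 and did not separate the groups. That of Actb was wider, at 0.699 to 0.931, and did not separate them either. Of 6 myoblast markers 5 were above the limit for dim genes, with mean signals of 6.37 and 6.53 on the control arrays and 6.72 and 5.81 on the Wnt3A arrays; Msc was below it. Within that list Myod1, a regulator of the muscle lineage, was lower (6.84, 7.11, 6.32 and 3.62, lowest on Wnt3A replicate 2) and Myf5, a related regulator, higher (6.57, 5.98, 7.77 and 7.65). Of 5 macrophage markers 2 were above the limit, Csf1r and Cd68. Both were higher without overlap, where 14.7% of all tested genes were. Csf1r read 3.26, 3.39, 3.53 and 5.19, and Cd68, which was dim, read 2.82, 2.78, 3.03 and 3.13. Of 4 endothelial markers 1, Kdr, was above the limit, and it passed only through the control arrays (means of 2.43 in control and 2.17 with Wnt3A). None of these markers passed an adjusted p of 0.05 in limma, and their part in the differences described was not tested. The hybridization controls, RNAs added in known amounts, had means of 7.09 and 7.25 on the control arrays. On the Wnt3A arrays they had 7.05 and 6.66, lowest on replicate 2. Scaling the arrays to them shifted the median over all tested genes from -0.02 to 0.30. A small difference can therefore change sign with the scaling, which is stated where it occurs.

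The widest difference among the collagen genes was that of Col8a1, which encodes a short chain that forms hexagonal networks in vessel walls and in the cornea. The promoters of Col8a1 and of the type VI chains, whose members differed among themselves, are shown with the letters of 4 motifs, so that a reader can see what precedes these genes. They are read 5′ to 3′ on the strand of the gene, from 250 bases before to 50 after the start in RefSeq, build GRCm38.p6, and 35 of the 48 genes have such an entry. Capitals mark every match, on either strand, to the core bound by TCF and LEF factors, partners of β-catenin (CTTTGA, searched also with its last letter changed, as CTTTGT), to the TATA box (TATAAA), to the CCAAT box of that name or to the GC box (GGGCGG); a match on the opposite strand shows as its reverse complement, such as CCGCCC for the GC box. Col8a1 lies at chr16:57754688-57754987 (minus strand), Col6a1 at chr10:76725995-76726294 (minus), and Col6a2 has starts at chr10:76623355-76623654 and chr10:76623581-76623880 (both minus), whose windows share 74 bases. Col6a3 lies at chr1:90843922-90844221 (minus).
Col8a1: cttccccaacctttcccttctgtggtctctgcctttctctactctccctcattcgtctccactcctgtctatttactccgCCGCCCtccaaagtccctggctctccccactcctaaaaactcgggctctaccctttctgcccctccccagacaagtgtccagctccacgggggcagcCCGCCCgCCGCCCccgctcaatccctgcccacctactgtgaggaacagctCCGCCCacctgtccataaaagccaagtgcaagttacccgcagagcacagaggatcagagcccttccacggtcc
Col6a1: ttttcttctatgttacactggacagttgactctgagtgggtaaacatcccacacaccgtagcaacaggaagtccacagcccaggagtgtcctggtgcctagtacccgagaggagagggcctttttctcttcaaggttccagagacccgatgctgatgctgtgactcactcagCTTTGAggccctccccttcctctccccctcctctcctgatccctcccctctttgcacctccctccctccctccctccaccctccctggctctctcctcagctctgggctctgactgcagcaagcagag
Col6a2, first start: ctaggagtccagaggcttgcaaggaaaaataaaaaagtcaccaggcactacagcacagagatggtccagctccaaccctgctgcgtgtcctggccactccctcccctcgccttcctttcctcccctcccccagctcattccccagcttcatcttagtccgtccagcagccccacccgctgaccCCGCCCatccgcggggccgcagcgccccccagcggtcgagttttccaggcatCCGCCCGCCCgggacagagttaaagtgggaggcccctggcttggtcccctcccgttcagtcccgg
Col6a2, second start: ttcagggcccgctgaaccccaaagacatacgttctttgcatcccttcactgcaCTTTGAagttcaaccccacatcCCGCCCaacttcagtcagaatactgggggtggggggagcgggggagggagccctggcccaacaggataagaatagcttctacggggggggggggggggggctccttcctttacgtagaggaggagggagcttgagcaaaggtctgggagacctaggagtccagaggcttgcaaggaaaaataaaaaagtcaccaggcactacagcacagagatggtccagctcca
Col6a3: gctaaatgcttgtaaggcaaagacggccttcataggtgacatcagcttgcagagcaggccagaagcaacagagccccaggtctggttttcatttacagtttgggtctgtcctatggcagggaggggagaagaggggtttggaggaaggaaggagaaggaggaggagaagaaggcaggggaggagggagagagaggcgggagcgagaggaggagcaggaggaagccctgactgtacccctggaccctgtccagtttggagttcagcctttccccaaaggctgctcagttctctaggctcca

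The Col8a1 window held 4 GC boxes, between bases -170 and -18 from the start, and none of the other motifs. Col6a1 held 1 TCF/LEF core at -78 to -73 and no GC box. The first Col6a2 start had 3 GC boxes, 2 of which overlap, and the second had 1 TCF/LEF core at -197 to -192 and 1 GC box. No motif matched in the Col6a3 window. Of all 32851 promoters of this length in the table, 31.2% held a TCF/LEF core, 13.6% a TATA box, 37.4% a CCAAT box and 35.7% a GC box; of the 38 promoters of the collagen genes these were 36.8%, 18.4%, 34.2% and 63.2%. These matches describe letters only. Which start the cells used was not measured.

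Col8a1 was higher with Wnt3A on both arrays. It read 2.75 and 4.12 in the controls and 8.82 on each Wnt3A array. The control arrays were 1.38 apart and the Wnt3A arrays lay far above both, with no overlap. The difference was 5.39 (SE 0.49, 95% confidence interval 4.10 to 6.68), or 41.8-fold. The second Col8a1 probe set read 2.47 and 2.81 on the control arrays and 5.10 and 4.88 on the Wnt3A arrays, giving a smaller difference of 2.35 in the same direction. Its control signals, and the 2.75 of control replicate 1 on the first probe set, lay near the limit for dim genes. The direction was the same on both probe sets, but the size of the fold is uncertain. The adjusted p over all 9295 tested genes was 0.202 in limma, which does not pass 0.05. With a replicate block it was 0.0035 in limma and passed, though no label says that equal replicate numbers mark shared cultures. After scaling to hybridization controls the difference was 5.70 and passed (adjusted p = 2.55e-07 in limma, in a fit with 18.1 in place of 4.68 degrees of freedom). Over the alternatives that kept all 4 arrays the adjusted p in limma ran from that value to 0.221, after quantile normalization. Over all 10 alternatives the difference ran from 3.87 to 6.07. With the dimmest 50% left out, the limit was 4.83 and Col8a1, with a control mean of 3.43, passed it only through the Wnt3A arrays. The 4 markers of osteoblasts and chondrocytes on the array had mean signals of 3.34 and 3.39 in control against 3.86 and 4.29, and none passed an adjusted p of 0.05 in limma. Alpl, which passed the limit for dim genes only through the Wnt3A arrays, held much of this; without it the means were 3.85 and 3.98 against 4.10 and 4.42. Sox9 was higher without overlap, Sp7 overlapped and Acan was below the limit. The part of these markers in the Col8a1 difference was not tested. The other short-chain gene on the array, Col10a1, a marker of hypertrophic cartilage, was under that limit, with means of 1.77 ± 0.18 and 1.35 ± 0.09.

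**Figure D1:**
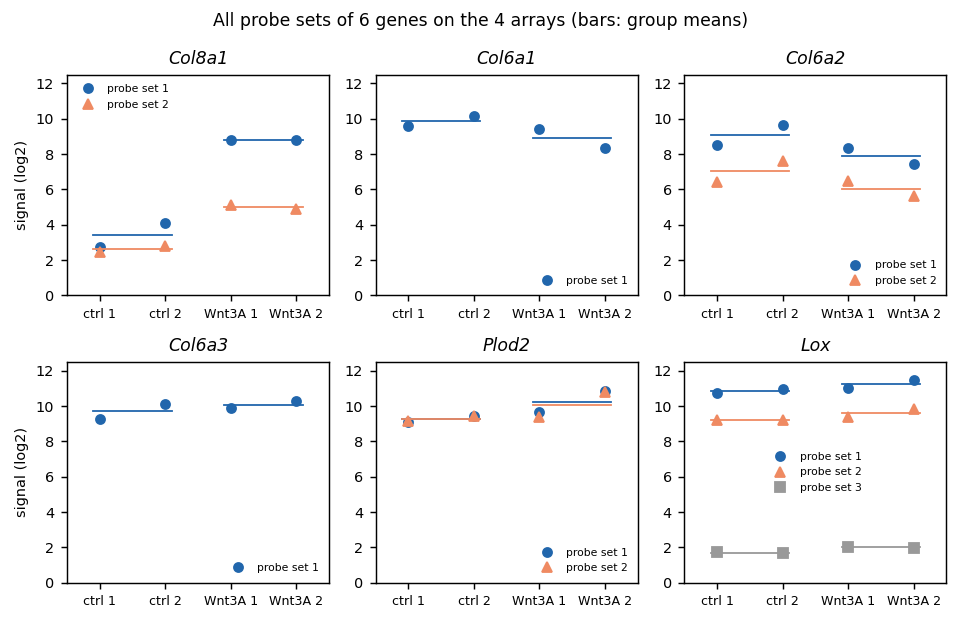
Log2 signal (vertical axes) of every probe set of 6 genes on the 4 arrays (horizontal axes: control, ctrl, and Wnt3A replicates 1 and 2), with bars at the group means. Both Col8a1 probe sets lie higher on each Wnt3A array than on either control, both Col6a2 probe sets are lowest on Wnt3A replicate 2, and Plod2 is highest there.

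No collagen gene passed an adjusted p of 0.05: 0 of 37 tested, where 0% of all 9295 genes passed. At an unadjusted p under 0.05 in limma there was 1, Col8a1, where 528 of all tested genes, or 5.68%, were under it. Among the 37, 19 were higher and 18 lower with Wnt3A, with a median difference of 0.0080 beside -0.02 over all tested genes; after scaling to hybridization controls 25 were higher. The groups did not overlap in 12 of 37, of which 4 were higher (Col8a1, Col14a1, Plod2, Lox) and 8 lower (Col1a2, Col3a1, Col4a6, Col6a1, Col6a2, Col9a1, Col17a1, Pcolce); over all tested genes 34.4% did not overlap. Col17a1 passed the limit for dim genes only through the control arrays; without it 11 of 36 did not overlap, 4 higher and 7 lower. At least 2-fold apart without overlap were 1 higher gene, Col8a1, and 1 lower gene, Col6a2, where the same rule took 1.54% and 2.09% of all tested genes. Read against these shares, the collagen genes stood apart about as often as genes in general.

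**Figure D2:**
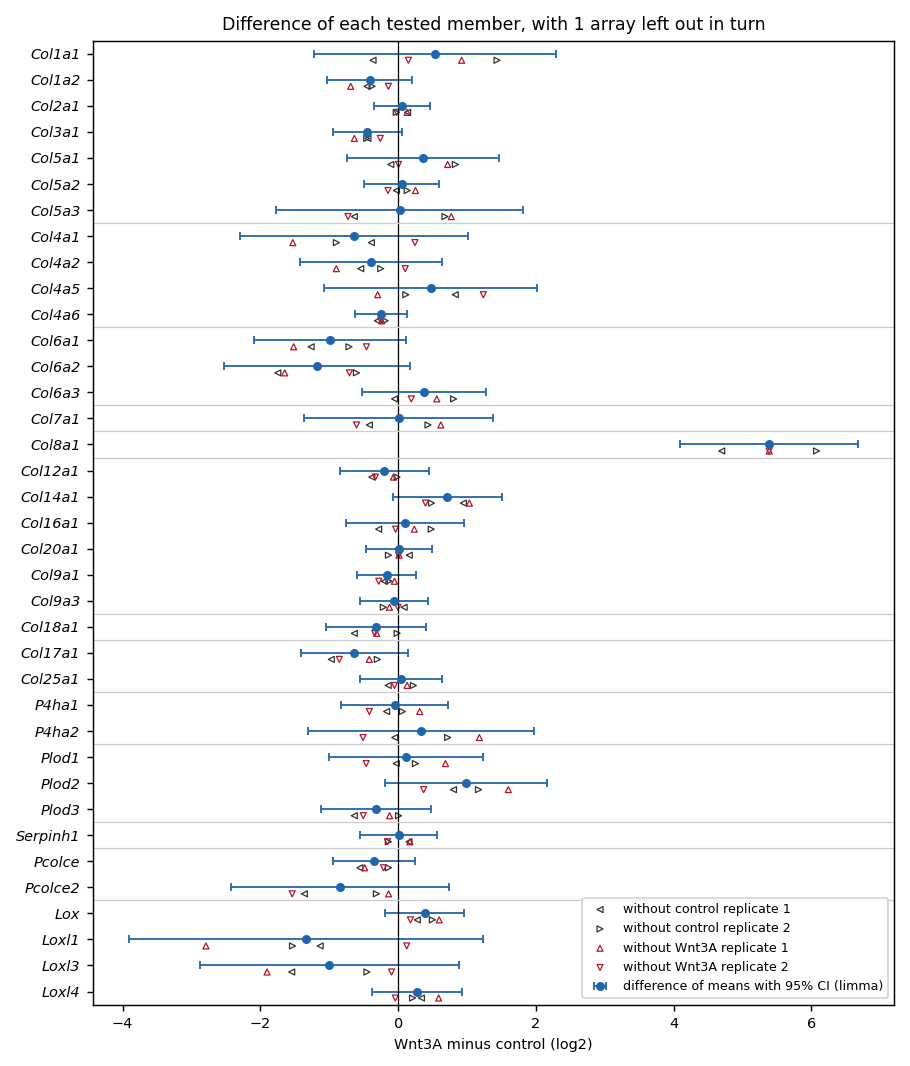
Wnt3A minus control in log2 units (horizontal axis) for the 37 tested genes, ordered by class with grey lines between classes; circles with bars are the mean difference and its 95% confidence interval from limma, and triangles the difference with 1 array left out. The interval of Col8a1 runs from 4.10 to 6.68 and lies away from 0, while those of the other 36 genes reach across 0.

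Among the fibrillar chains, which form the banded fibres of tendon, skin and muscle sheaths, Col1a2 and Col3a1 were lower with Wnt3A on both arrays and Col1a1, Col5a1 and Col5a2 were not. Col1a2, a chain of type I collagen, read 12.34 and 12.41 on the control arrays and 12.24 and 11.69 on the Wnt3A arrays. The group difference was -0.42 with an SE of 0.23 (adjusted p = 0.917 in limma); it was -0.14 without Wnt3A replicate 2 and -0.69 without Wnt3A replicate 1. Col3a1, the chain of type III collagen, read 12.37 and 12.36 on the control arrays and 12.11 and 11.73 on the Wnt3A arrays. The control arrays of both genes lay close together and Wnt3A replicate 2 was the lowest of the 4. For Col3a1 the difference was -0.45 with an SE of 0.19 (95% confidence interval -0.95 to 0.06), and the adjusted p in limma was 0.917; the difference was -0.26 without Wnt3A replicate 2. Second probe sets gave -0.42 for Col1a2, there with overlapping groups, and -0.53 for Col3a1. Scaling to hybridization controls left both below 0, at -0.10 and -0.13.

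Col1a1, the other chain of type I collagen, read 4.59 and 6.39 on the control arrays and 5.64 and 6.41 on the Wnt3A arrays. Here the replicates lay wider apart than the groups, and the groups overlapped. The difference of 0.54 (SE 0.67) was -0.36 without control replicate 1, and the second Col1a1 probe set gave -0.08. Col5a1, a chain of type V collagen that starts fibril assembly, read 8.31 and 9.25 on the control arrays and 8.78 and 9.50 on the Wnt3A arrays, giving a difference of 0.36 (SE 0.42). Col5a2, its partner chain, read 10.95 and 11.11 on the control arrays and 10.89 and 11.29 on the Wnt3A arrays, giving a difference of 0.05 (95% confidence interval -0.49 to 0.60). For Col5a1, as for Col5a3 (5.19, 6.51, 5.12 and 6.62), replicate 2 of each group was above replicate 1. Without control replicate 1 both Col5a1 and Col5a2 were below 0. Col2a1, the cartilage chain, was dim, with means of 2.37 ± 0.12 and 2.42 ± 0.11, and Col11a1 and Col11a2 were under the limit for dim genes.

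The 3 type VI chains, which together form beaded microfilaments around muscle cells, did not go the same way. Col6a1 read 9.60 and 10.15 on the control arrays and 9.42 and 8.36 on the Wnt3A arrays. Both Wnt3A arrays were below both controls, replicate 1 only narrowly and replicate 2 widely. The difference was -0.99 (SE 0.42, 95% confidence interval -2.10 to 0.12), or 1.98-fold, just short of the 2-fold limit, which it passed after quantile normalization. Col6a2 read 8.50 and 9.64 on the control arrays and 8.36 and 7.42 on the Wnt3A arrays, again with replicate 1 close to the lower control. Its difference was -1.18 (SE 0.51, 95% confidence interval -2.52 to 0.17), or 2.26-fold, and a second probe set, on which the groups overlapped, gave -0.98. Col6a3, the long chain that joins the other two, read 9.27 and 10.13 on the control arrays and 9.89 and 10.26 on the Wnt3A arrays, giving a difference of 0.38 (95% confidence interval -0.53 to 1.28) with overlapping groups. The adjusted p in limma was 0.917, 0.917 and 0.935 for the 3 genes. Without Wnt3A replicate 2 the differences of Col6a1 and Col6a2 were -0.46 and -0.71. Without Wnt3A replicate 1 they were -1.52 and -1.65. Without control replicate 2 that of Col6a2 was -0.61 and without control replicate 1 it was -1.75. After scaling to hybridization controls they were -0.67 and -0.86. The difference between chains was not tested.

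Marker genes of other cell states were lower on the same arrays as these chains, though none passed an adjusted p of 0.05 in limma. The 8 markers of differentiated muscle were all above the limit for dim genes. Of these, 7 were lower without overlap, where 19.8% of all tested genes were. Myh1 was higher by 0.35 with overlapping groups. Mean signals of the 8 were 7.92 and 8.96 on the control arrays and 7.60 and 7.03 on the Wnt3A arrays. The 6 fibroblast markers, 4 of them above the limit, had 4.42 and 4.55 on the control arrays and 3.68 and 3.62 on the Wnt3A arrays, and Thy1 and Dpt were under the limit. Fap passed that limit only through the control arrays, and without it the means were 4.71 and 4.76 against 4.05 and 4.07. Dcn and Dpt also belong to a list of partner genes. No marker was listed at 0. In bulk RNA fewer cells of a state and less RNA per cell cannot be told apart, and the part of these markers in the differences of Col6a1, Col6a2, Col1a2 and Col3a1 was not tested.

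Of the basement membrane chains, Col4a1, Col4a2 and Col4a5 had Wnt3A arrays that lay farther apart than the group means. Col4a1, with Col4a2 the backbone of every basement membrane, read 7.60 and 7.09 on the control arrays and 7.59 and 5.82 on the Wnt3A arrays. Wnt3A replicate 2 alone stood low. Its difference of -0.64 (SE 0.63) became 0.24 without that array, and its second probe set, at -0.84, read 4.12 on that array against 6.08 on the other. Col4a2 read 6.60 and 6.90 on the control arrays and 6.85 and 5.85 on the Wnt3A arrays, giving a difference of -0.40 (SE 0.39) that was 0.10 without Wnt3A replicate 2. Col4a5, a chain of the glomerular and muscle basement membranes, was highest on Wnt3A replicate 1 (7.33) and read 6.45, 5.73 and 5.80 on control replicates 1 and 2 and Wnt3A replicate 2. Its difference of 0.47 (SE 0.59) was -0.30 without Wnt3A replicate 1. Col4a6, near the limit for dim genes, had means of 2.58 ± 0.08 in control and 2.34 ± 0.01 with Wnt3A, without overlap. Its difference of -0.24 was 0.07 after scaling to hybridization controls. Col4a3 and Col4a4 were under the limit for dim genes.

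Several of these genes are neighbours in the genome, and in RefSeq the order of protein-coding genes puts 6 pairs of the 48 side by side. Col4a1 and Col4a2 are read in opposite directions from a shared start region: the promoter windows, at chr8:11312777-11313076 (minus strand) and chr8:11312555-11312854 (plus strand) of GRCm38.p6, share 78 bases. Col4a1 is shown for that region, with a CCAAT box, on the opposite strand, and a GC box in capitals.
Col4a1: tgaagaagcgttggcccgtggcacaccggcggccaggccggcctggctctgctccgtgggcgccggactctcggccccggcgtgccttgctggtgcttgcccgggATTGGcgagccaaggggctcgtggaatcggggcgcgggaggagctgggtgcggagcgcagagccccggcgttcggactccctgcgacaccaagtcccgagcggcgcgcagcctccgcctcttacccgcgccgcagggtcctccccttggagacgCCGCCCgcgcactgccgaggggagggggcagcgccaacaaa
The pair was lowest on the same array, Wnt3A replicate 2, as were the neighbours Col6a1 and Col6a2 on chromosome 10. The neighbours Col3a1 and Col5a2 on chromosome 1 differed, since Col3a1 was lowest and Col5a2 highest on Wnt3A replicate 2. The other pairs, Col4a5 with Col4a6, Col4a3 with Col4a4 and Col9a1 with Col19a1, each hold a gene near or under the limit for dim genes.

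**Figure D3:**
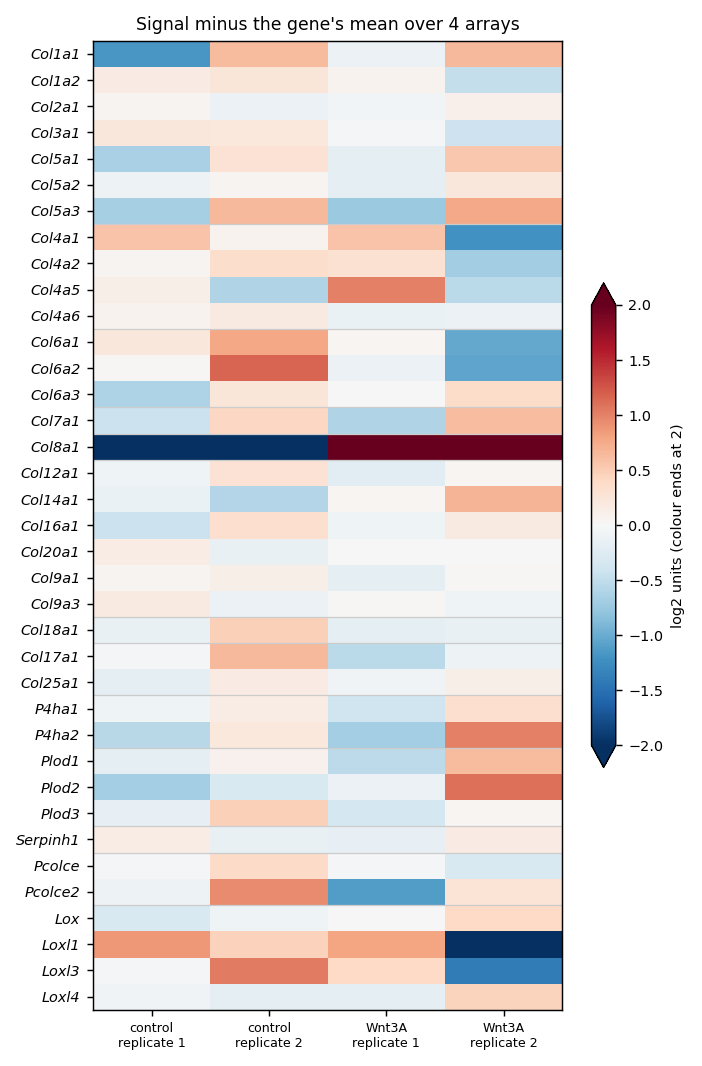
Each tested gene's log2 signal minus its own mean over the 4 arrays (colour, red above and blue below, ending at 2), with the arrays as columns. Col8a1 is blue on both controls and red on both Wnt3A arrays, while Col4a1, Col6a1, Col6a2, Loxl1 and Loxl3 are blue mainly on Wnt3A replicate 2.

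FACIT chains, which sit on the surface of fibrils, and the transmembrane chains were mostly dim. Col14a1, which binds to type I fibrils, read 2.92 and 2.46 on the control arrays and 3.09 and 3.73 on the Wnt3A arrays, giving a difference of 0.72 (SE 0.30, adjusted p = 0.917 in limma) without overlap. Leaving out Wnt3A replicate 2 gave 0.40, leaving out control replicate 2 gave 0.48, and a second Col14a1 probe set gave 0.14. Col12a1, at 6.08 ± 0.26 and 5.88 ± 0.19, differed by -0.20, which was 0.12 after scaling to hybridization controls, and Col16a1, at 6.53 ± 0.54 and 6.62 ± 0.19, by 0.10. Col17a1, a hemidesmosome component of epithelia, read 2.38 and 3.05 on the control arrays and 1.86 and 2.30 on the Wnt3A arrays, giving a difference of -0.64 (SE 0.30) whose mean with Wnt3A, 2.08, was under the limit for dim genes. Leaving out control replicate 2 gave -0.30, Wnt3A replicate 1 gave -0.42 and control replicate 1 gave -0.97. Col25a1, a membrane collagen of nerve-muscle contact, differed by 0.04 (3.89 ± 0.26 and 3.92 ± 0.13). Col9a1, Col9a3 and Col20a1 had group means from 2.47 to 2.99 and differences from -0.17 to 0.01; those of Col9a1 and Col9a3 were above 0 after scaling to hybridization controls. Col18a1, the source of endostatin, read 6.82 and 7.44 on the control arrays and 6.79 and 6.82 on the Wnt3A arrays. Its difference was -0.33 with overlapping groups. A second Col18a1 probe set of nearly equal brightness read 7.18, 7.28, 6.91 and 6.45, a difference of -0.55 without overlap. Col7a1, the anchoring fibril chain of skin, read 3.67, 4.52, 3.49 and 4.71, with both replicates 2 above both replicates 1.

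The 11 chains under the limit for dim genes had mean signals from 1.48 (Col4a4) to 2.18 (Col11a2, just under the limit); the dimmest tested gene was Loxl4 with a mean of 2.32. They are Col4a3, Col4a4, Col9a2, Col10a1, Col11a1, Col11a2, Col13a1, Col15a1, Col19a1, Col22a1 and Col26a1. Without a detection call no more can be said of them than that they are dim. In size their differences reached 0.42, in Col10a1.

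The enzymes that modify collagen chains inside the cell were spread by replicate. Plod2, a lysyl hydroxylase that acts on the chain ends used in crosslinks, read 9.09 and 9.45 on the control arrays and 9.64 and 10.87 on the Wnt3A arrays. Both Wnt3A arrays were above both controls, and replicate 2 set most of the size. The difference was 0.99 (SE 0.45, 95% confidence interval -0.19 to 2.16), or 1.98-fold, with an adjusted p of 0.917 in limma. It was 0.37 without Wnt3A replicate 2 and 1.60 without Wnt3A replicate 1. The second probe set gave 0.81 with Wnt3A arrays at 9.40 and 10.77, of which the former lay just under the higher control (9.41). Plod1 read 7.86, 8.14, 7.54 and 8.69, a difference of 0.11 (SE 0.43) that was -0.46 without Wnt3A replicate 2. Plod3, which also adds sugars to hydroxylysine, read 7.35, 7.99, 7.16 and 7.54. Its difference of -0.32 (SE 0.30) was 0.0008 after scaling to hybridization controls.

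P4ha1 and P4ha2 encode the catalytic subunits of the prolyl 4-hydroxylase. P4ha1 read 10.52 and 10.75 on the control arrays and 10.21 and 10.95 on the Wnt3A arrays. The P4ha1 difference of -0.05 (95% confidence interval -0.83 to 0.72) was 0.26 after scaling to hybridization controls. Its second probe set read 7.71 and 6.10 on the control arrays and 7.32 and 7.96 on the Wnt3A arrays, giving a difference of 0.74, so the probe sets differed in sign. P4ha2 read 9.73 and 10.50 on the control arrays and 9.61 and 11.30 on the Wnt3A arrays, giving a difference of 0.335 (SE 0.63) that was -0.51 without Wnt3A replicate 2. In P4ha1, P4ha2, Plod1 and Plod2 Wnt3A replicate 2 was the highest of the 4 arrays. Serpinh1, the collagen chaperone HSP47, read 10.84 and 10.54 on the control arrays and 10.54 and 10.86 on the Wnt3A arrays, giving a difference of 0.0080 (SE 0.21, 95% confidence interval -0.55 to 0.57), with overlapping groups.

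Outside the cell, Pcolce, which speeds the removal of the C-terminal end piece, read 10.71 and 11.12 on the control arrays and 10.71 and 10.43 on the Wnt3A arrays. Wnt3A replicate 1 and control replicate 1 were level to 2 decimals. Its difference was -0.35 (SE 0.22), its second probe set gave -0.31, and leaving out control replicate 2 gave -0.14, Wnt3A replicate 2 gave -0.21 and control replicate 1 gave -0.56. After scaling to hybridization controls it was -0.03. Pcolce2 read 6.46, 7.51, 5.45 and 6.84, a difference of -0.84 (SE 0.60) with overlapping groups. Lox, the founding lysyl oxidase, read 10.74 and 10.96 on the control arrays and 11.03 and 11.45 on the Wnt3A arrays, giving a difference of 0.39 (SE 0.22, 95% confidence interval -0.18 to 0.96) without overlap. It was 0.18 without Wnt3A replicate 2 and 0.60 without Wnt3A replicate 1. Its other probe sets gave 0.41 and 0.32, the last from signals of 1.68 to 2.04.

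Loxl1 and Loxl3, further lysyl oxidases, were lowest on Wnt3A replicate 2. Loxl1, which acts mainly on elastin, read 7.93 and 7.53 on the control arrays and 7.86 and 4.94 on the Wnt3A arrays. The wide mean difference of -1.33 (SE 0.98) came with 1 array far below the other 3 and was 0.12 without it. Loxl3 read 6.73 and 7.82 on the control arrays and 7.18 and 5.37 on the Wnt3A arrays, giving a difference of -0.999 (SE 0.72) that was -0.10 without Wnt3A replicate 2. Loxl4, near the limit for dim genes, read 2.25, 2.12, 2.15 and 2.77.

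**Figure D4:**
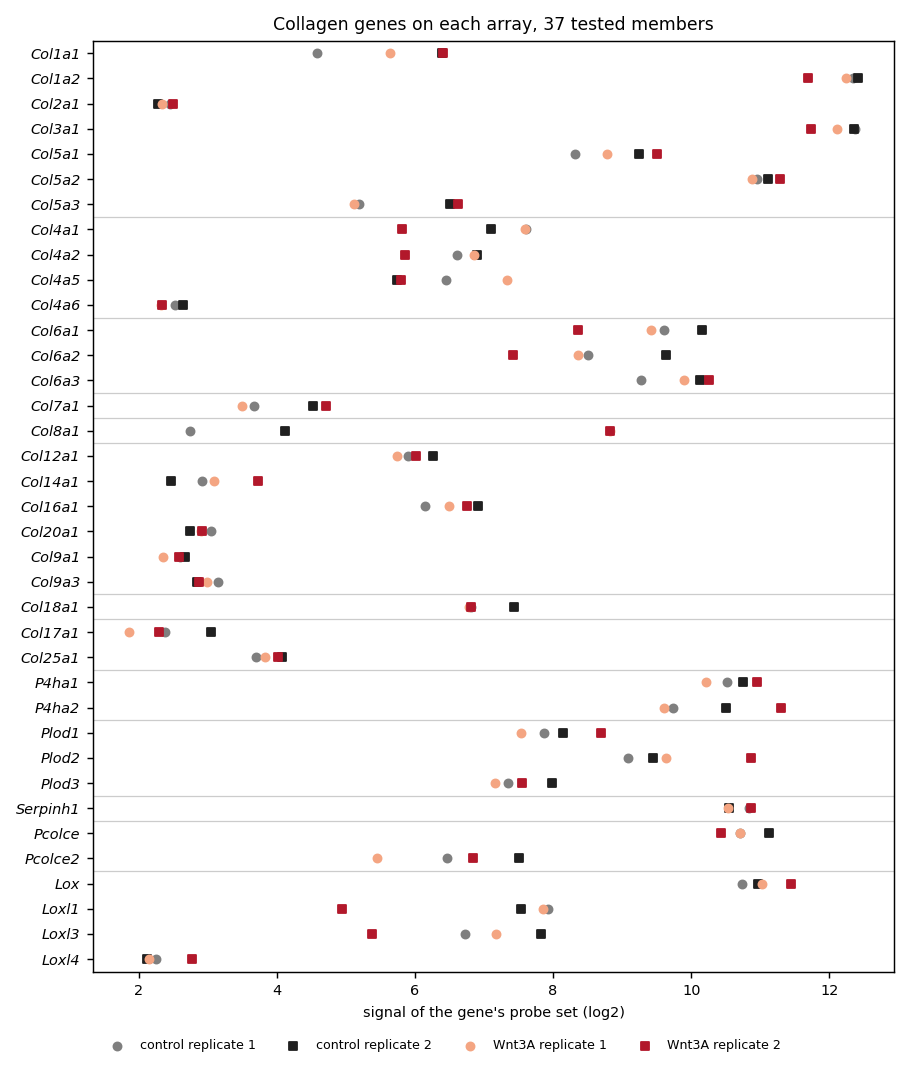
Log2 signal (horizontal axis) of each of the 37 tested genes on the 4 arrays, in grey and black for control replicates 1 and 2 and in orange and red for Wnt3A replicates 1 and 2; circles are replicates 1, squares replicates 2. The Wnt3A points of Col8a1 coincide at 8.82, and in Col5a3, Col7a1 and P4ha2 the squares lie to the right of the circles in both groups.

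A gap between single arrays is, by construction, wider than a difference between means of such arrays when nothing differs, so the values of the 37 tested genes are set beside those of all genes. The median gap between the control arrays was 0.41 and that between the Wnt3A arrays 0.55, while the median size of the difference between groups was 0.35; over all tested genes these were 0.23, 0.30 and 0.20. The difference was wider than both gaps in 5 of 37, or 13.5%, and in 21.4% of all tested genes. Replicate 2 was above replicate 1 in 27 genes in control and in 26 with Wnt3A, beside 5428 and 4907 of all 9295 tested genes. The highest of the 4 arrays was Wnt3A replicate 2 for 16 genes, control replicate 2 for 15, control replicate 1 for 5 and Wnt3A replicate 1 for 1; over all tested genes these shares were 32.4%, 29.9%, 19.6% and 18.1%, in that order, beside 43.2%, 40.5%, 13.5% and 2.7% of the collagen genes. The lowest was Wnt3A replicate 1 for 14 genes, or 37.8% beside 24% of all genes, and Wnt3A replicate 2 for 9, or 24.3% beside 32.2%. Scaling to hybridization controls adds 0.316 to the difference of every gene, which turned the sign of the 6 that lay closest below 0: Col4a6, Col9a1, Col9a3, Col12a1, P4ha1 and Plod3.

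Partner genes of the collagen pathway gave a background to these values, in 6 lists with 54 entries, with 43 measured by the array and 36 of these tested. None of the 36 passed an adjusted p of 0.05 in limma. At an unadjusted p under 0.05 in limma there were 3, where 5.68% of all tested genes were under it. Of the 36, 9 were higher and 27 lower with Wnt3A, where 53.0% of all tested genes were lower, with a median of -0.30; after scaling to hybridization controls 19 were higher and 17 lower. Without overlap 2 were higher and 12 lower, where 14.7% and 19.8% of all tested genes were. Tnxb and Comp had a mean under the limit for dim genes in 1 group and overlapped. In the list of folding and modification in the endoplasmic reticulum 7 of 8 were lower, 5 of them without overlap (19.8% of all tested genes), with a median of -0.49, and 5 of 8 were lower after that scaling. Crtap, a subunit of the prolyl 3-hydroxylase complex, read 8.78 and 8.64 on the control arrays and 8.07 and 8.03 on the Wnt3A arrays, giving a difference of -0.66 (SE 0.18, adjusted p = 0.697 in limma). P3h4, of a lysyl hydroxylation complex, differed by -0.68 (SE 0.29) and Colgalt1, a collagen galactosyltransferase, by -0.54 (SE 0.26). Of 7 genes of export from the endoplasmic reticulum and its control 3 were higher and 4 lower, or 6 and 1 after that scaling. Mia3, which loads procollagen into carriers, differed by -0.33, or -0.02 after scaling, and Sar1b by 0.24. Creb3l2 differed by -0.30, or 0.01 after scaling, and another Creb3l2 probe set gave 0.24. Bmp1, which encodes the C-proteinase, was the only tested propeptide protease and differed by -0.37, with 0.33 on another probe set.

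Fmod, the gene of fibromodulin, a small proteoglycan on collagen fibrils, was the partner gene of lowest p. It read 4.05 and 5.69 on the control arrays and 6.91 and 7.41 on the Wnt3A arrays. Both Wnt3A arrays lay above both controls on this and on the other 5 probe sets, whose differences were 1.40 to 1.73. The difference was 2.29 (SE 0.59, adjusted p = 0.658 in limma), or 4.89-fold. It passed after scaling to hybridization controls, and also with the replicate block (adjusted p = 0.044 in limma). Dcn, the related proteoglycan decorin, read 7.90 and 7.57 on the control arrays and 6.03 and 7.08 on the Wnt3A arrays, giving a difference of -1.18 (SE 0.41). Tgfbi, a matrix adaptor protein gene, differed by -0.86 (SE 0.37), and its other probe sets by -1.14 to -0.77. In that list of fibril-associated matrix genes 3 were higher and 8 lower, or 5 and 6 after scaling to hybridization controls. Among 4 tested receptors Mrc2, which takes collagen into the cell, read 9.13 and 9.34 on the control arrays and 8.72 and 7.35 on the Wnt3A arrays, giving a difference of -1.20 (SE 0.49) with -0.36 on a second probe set. It was -0.52 without Wnt3A replicate 2 and -1.89 without Wnt3A replicate 1. The kinase receptor genes Ddr2 and Ddr1 differed by -0.44 (SE 0.22) and 0.62 (SE 0.38); other Ddr1 probe sets gave -0.17 to 0.59. Of 5 tested genes of collagen degradation 4 were lower, none without overlap, and 2 after that scaling: Mmp9 read 6.31, 6.70, 4.18 and 6.81, Mmp2 read 9.58, 9.24, 9.49 and 7.53, and Mmp14 differed by -0.18, with 0.07 on another probe set and 0.14 after scaling.

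**Figure D5:**
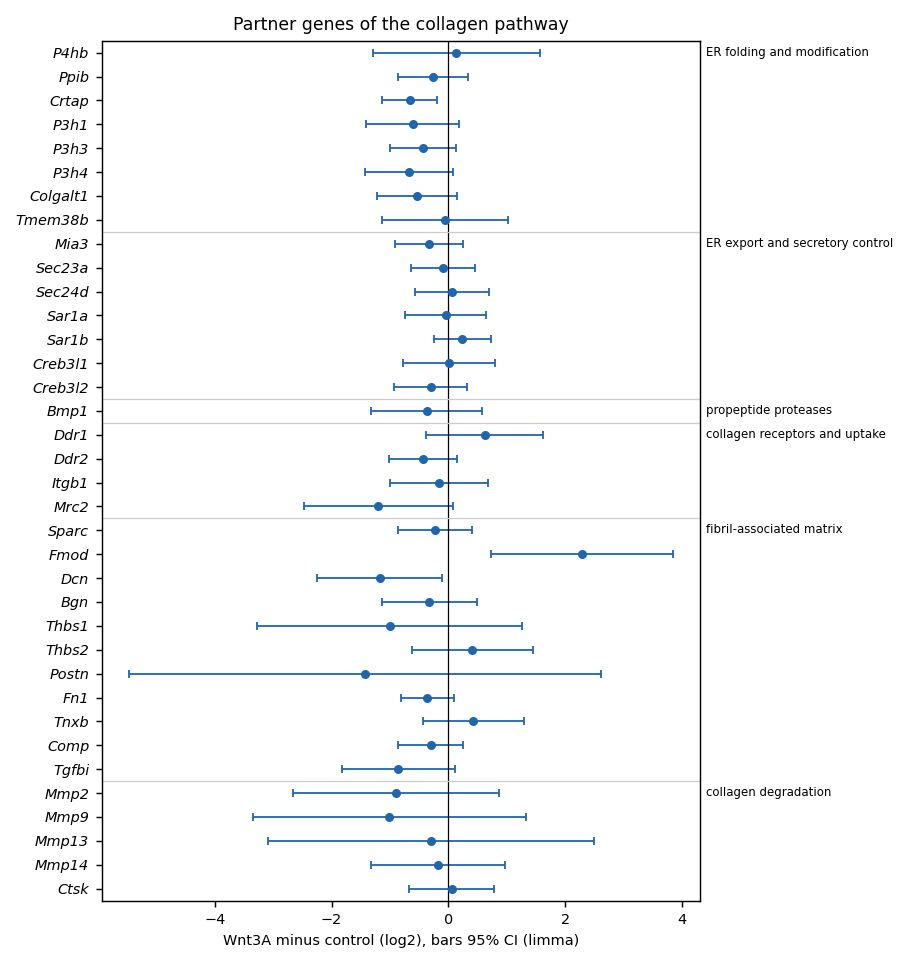
Wnt3A minus control in log2 units (horizontal axis) with 95% confidence intervals from limma for the 36 tested partner genes, grouped by list with list names at the right. Fmod, at 2.29, lies farthest to the right, and 7 of the 8 genes of folding and modification lie left of 0.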

How the data were processed

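The series holds 4 Affymetrix arrays of total RNA, isolated with Trizol per the labels' protocols. The authors deposited a log2 signal for every probe set of each array. The submitters' processing notes name GCOS and PLIER with no version or role, and the normalization is not given in the sources used here. That the scale is log2 was read from the values (0.50 to 13.23); another base would rescale every difference and fold. The group came from the treatment label, since every sample carries the same protocol text.

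Of 22690 probe sets, 20380 with 1 gene symbol in the platform annotation were used, 691 name several genes, and 20351 were matched by Entrez ID to RefSeq symbols (GRCm38.p6). The probe set of highest mean stood for each of 12393 genes; the dimmest 25% were left out and 9295 genes were tested with limma 3.58.1 under R 4.3.3 (lmFit, eBayes with trend, group as the only term, 4.68 degrees of freedom), two-sided, with Benjamini-Hochberg adjustment over all of them and a threshold of 0.05. Promoter sequences are RefSeq's. Alternatives are given in the closing section. The procedure was tested on simulated data. Genes given array by array were 5 fibrillar chains, 10 genes fixed by name, those 2-fold apart without overlap and the 8 of lowest p; others were added after their values were seen. In each partner list the 3 genes of lowest p are named. The members and lists were chosen with earlier results of these data known.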

Additional observations from a re-analysis of the deposited data

How the results depend on the processing

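The fit was repeated with a replicate block, after quantile normalization, after scaling to hybridization controls, without a filter on dim genes, with the dimmest 50% left out, with probe sets averaged per gene, and with each array left out in turn; the alternatives for partner genes and for counts 2-fold apart were added after the data were seen. With the replicate block 83 genes passed over all genes, with scaling to hybridization controls 108 and with the dimmest 50% left out 1; under both of the former 1 collagen gene (Col8a1) and 1 partner gene (Fmod) passed, with adjusted p = 0.0035 and 0.044 under the block in limma. The labels do not say that equal numbers mark shared cultures; over the tested genes the gaps between replicates 2 and 1 of the groups correlated at 0.478. Scaling to hybridization controls made 3 collagen genes 2-fold higher without overlap and 0 lower, and quantile normalization made 2 lower; these counts were not repeated with an array left out. The median of the collagen genes ran from -0.28 (without control replicate 1) to 0.32 (hybridization controls). Of 17 genes, 10 kept their direction under every alternative that tested them (Col1a2, Col3a1, Col6a1, Col6a2, Col8a1, Col14a1, Lox, Pcolce, Plod2 and, above the limit for dim genes in control only, Col17a1). The groups of these 10 did not overlap, so leaving out an array could not turn their sign. The replicate block and the filters on dim genes leave a difference unchanged. Scaling to hybridization controls adds 0.316 to every difference. It could not turn the higher of the 10, and the lower ones lay farther than that below 0 (nearest Pcolce, -0.35). Only quantile normalization and the averaging of several probe sets could have turned a sign, and Col6a1 and Col17a1 have 1 probe set. P4ha1 turned to 0.26 with scaling to hybridization controls and to 0.34 with the mean of probe sets. With 1 array left out the group of 1 is assumed to vary like the other; the differences then ran from -0.36 to 1.44 for Col1a1, -1.53 to 0.24 for Col4a1, -0.90 to 0.10 for Col4a2, -0.11 to 0.83 for Col5a1, -0.15 to 0.25 for Col5a2, -0.42 to 0.31 for P4ha1 and -0.155 to 0.17 for Serpinh1. The cause of these changes was not tested. With no detection calls, dim genes are judged by signal alone.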
